A study of Mus musculus with 4 samples.

Results

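The nuclear-encoded subunits of respiratory complexes II to V were examined in J1 mouse embryonic stem cells, as poly(A) tail lengths and read numbers of single RNA molecules. Members were taken by gene symbol: Sdha, Sdhb, Sdhc and Sdhd for complex II, Cyc1 and symbols starting with Uqcr for complex III, Cox4 to Cox8 subunits for complex IV, and symbols starting with Atp5 for complex V. Pseudogene symbols were left out. The rule found 47 genes of 13831 symbols: 4 in complex II, 9 in complex III, 17 in complex IV and 17 in complex V. The rule uses gene symbols only, but it was chosen with earlier results of these data known.

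Complex II (succinate dehydrogenase) feeds electrons from the citric acid cycle into the inner mitochondrial membrane, complex III (cytochrome bc1) passes them to cytochrome c, and complex IV (cytochrome c oxidase) hands them to oxygen. Complex V (ATP synthase) uses the resulting proton gradient to make ATP. Complexes III, IV and V mix nuclear-encoded subunits, translated in the cytosol and imported, with a few mitochondrially encoded ones, whereas complex II is wholly nuclear-encoded. A poly(A) tail is added to a nuclear mRNA after cleavage and is then shortened in the cytoplasm; mitochondrial mRNAs receive their own short tails inside the organelle.

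The study compared wild-type J1 cells (WT) with J1 cells labelled as a Mov10 knockout (KO), 2 libraries each, called WT 1, WT 2, KO 1 and KO 2 here, and values for the libraries are given in this order throughout; the series title states tail length as the question. Mov10 is an RNA helicase. All cells grew in serum medium with LIF, a cytokine that holds mouse stem cells undifferentiated, and received no treatment. Native RNA enriched on oligo(dT) beads was read by nanopore, in barcoded libraries, so each read is 1 molecule with its tail. The labels used here give neither the way the knockout was made, nor the number of clones, nor whether libraries of a genotype came from separate cultures, so p-values measure only the spread between these libraries, which may be technical.

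Reads with a tail above 0 nucleotides (nt) numbered from 351133 in WT 2 to 683239 in KO 1. The targeted gene, Mov10 (ENSMUSG00000002227.15), had 26, 14, 0 and 1 reads, and was the only gene of 4815 past the threshold in limma's voom test of read number (adjusted p = 0.0335). The call was lost with limma's trend model (adjusted p = 0.174) and in voom without KO 1 (0.977) or KO 2 (0.993). The WT libraries differed from each other more than the KO libraries did, at 4.84 times the variance of counting for gene read numbers (chi-square over its degrees of freedom) against 2.27 times. WT 1 stood apart for the genes described here, so results are also given without it. All 10 stem cell markers examined (such as Pou5f1, Nanog and Sox2) had reads, whereas 6 of 8 fibroblast markers, among them Col1a1 and Col1a2, had none in any library and the other 2 summed to between 3 and 12 reads. Markers of primitive endoderm summed to at most 2 reads per library and those of mesoderm and neural cells to at most 5.

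The 47 members had 50769 reads, which was 2.67% of all reads, and their share by library was 2.75, 2.59, 2.72 and 2.56%. Tail length was tested for the 41 members with at least 20 reads in every library: all of complexes II, III and V, and 11 of complex IV. These had between 37 and 1460 reads per library. The other 6 were isoforms of complex IV subunits known for restricted tissue expression. Cox6a2, Cox7b2 and Cox8c had at most 2 reads in any library, Cox4i2 had 4, 0, 5 and 1 reads, Cox7a1 had 16, 8, 12 and 11, and Cox6b2 had 17, 9, 12 and 5. Where such a gene had no read, counting alone allows up to 4.39 reads per 1000000 in KO 1 and up to 8.54 in WT 2, the deepest and the shallowest library. The partner isoforms Cox4i1, Cox6a1, Cox6b1, Cox7a2 and Cox8a each had at least 170 reads in every library.

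Promoters of the members are shown first because respiratory subunit genes are classic targets of NRF1 and GABP, transcription factors that raise many of them together. The RefSeq table of promoters (assembly GRCm38.p6, from 250 bases before to 50 after the start) held 35 of the 47 members. The NRF1 motif (GCGCA, any 1 base, then GCGC), on either strand, occurred in 10 of them (28.6%), against 15.4% of the promoters of the 1529 genes tested for tail length that had an entry and 5.19% of all 27025. Of these 10, 6 were among the 15 complex V promoters and 2 among the 3 of complex II, with 1 of 12 in complex IV and 1 of 5 in complex III. The GABP motif CCGGAAGT occurred in 4 (11.4%, against 12.7% and 4.31%) and the YY1 motif AAGATGGCG in 2 (5.71%, against 5.63% and 1.64%), both also searched on either strand. Among the 40 nuclear complex I genes with a promoter entry, the NRF1 motif occurred in 22.5%, the GABP motif in 2.5% and the YY1 motif in 15.0%. A match is a description of the letters, not a bound site. The 3 promoter stretches printed here hold more than 1 match each, and Atp5h is also the member with the smallest p for read number. They are on the minus strand of GRCm38.p6 and are written 5′ to 3′ in the direction of the gene, with the motif matches in capitals, none of which overlap: chr13:74350241-74350368 for Sdha, chr5:115349036-115349150 for Cox6a1 and chr11:115419921-115420090 for Atp5h, all upstream of the RefSeq start.
Sdha: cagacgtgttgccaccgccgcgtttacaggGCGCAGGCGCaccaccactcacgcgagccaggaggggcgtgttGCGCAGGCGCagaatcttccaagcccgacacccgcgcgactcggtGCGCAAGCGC
Cox6a1: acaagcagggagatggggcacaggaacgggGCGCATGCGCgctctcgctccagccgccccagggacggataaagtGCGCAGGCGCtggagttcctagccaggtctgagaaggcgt
Atp5h: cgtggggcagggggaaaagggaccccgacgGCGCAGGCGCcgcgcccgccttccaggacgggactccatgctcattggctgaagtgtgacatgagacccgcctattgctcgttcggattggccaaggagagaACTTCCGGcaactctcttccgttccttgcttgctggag
Sdha held 3 NRF1 matches and Cox6a1 held 2, whereas Atp5h held 1 NRF1 match and 1 GABP match, the latter on the opposite strand.

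Tail lengths of the members were like those of other nuclear genes as a whole, and far above those of the mitochondrially encoded subunits of the same complexes. The median over the 41 members of the gene medians was 100.2, 115.7, 111.5 and 106.3 nt. Over the 1883 other nuclear genes tested it was 102.4, 109.4, 110.1 and 101.9 nt. The members were therefore shorter by 2.27 nt in WT 1 and longer by 6.37, 1.42 and 4.39 nt in the other libraries, a mean difference of 2.48 nt ± 3.76 (SD over 4 libraries) that did not exceed its spread. The sign of this difference also turned in KO 1 with some settings, to −3.77 nt when transcripts carrying more than 1 gene symbol were left out. The most alike group was taken by symbol alone: 40 genes with symbols starting with Nduf, called nuclear complex I genes here. Whether each of them, such as Ndufa4, is a subunit of complex I was not checked. The group takes in assembly factors such as Ndufaf2, which for complexes II to V were listed apart. This group lay at 95.6, 110.3, 108.7 and 104.4 nt. That was below the complex II to V members in all 4 libraries, by 3.69 nt ± 1.61 (SD over 4 libraries).

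Against the mitochondrial genome the separation was complete. Every one of the 41 nuclear members had a longer median tail than the longest mitochondrially encoded mRNA tested, mt-Co3, in each library; mt-Co3 lay at 66.6, 66.6, 68.3 and 69.1 nt. The nuclear complex IV members were longer than the median of mt-Co1, mt-Co2 and mt-Co3, the core subunits they assemble around, by 42.8, 65.9, 61.0 and 54.1 nt. For complex III the gap to mt-Cytb was 55.5, 60.9, 59.3 and 51.0 nt, and for complex V the gap to mt-Atp6 was 31.9, 47.8, 40.9 and 38.7 nt. These gaps are between gene medians, and the single reads overlapped.

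**Figure D1:**
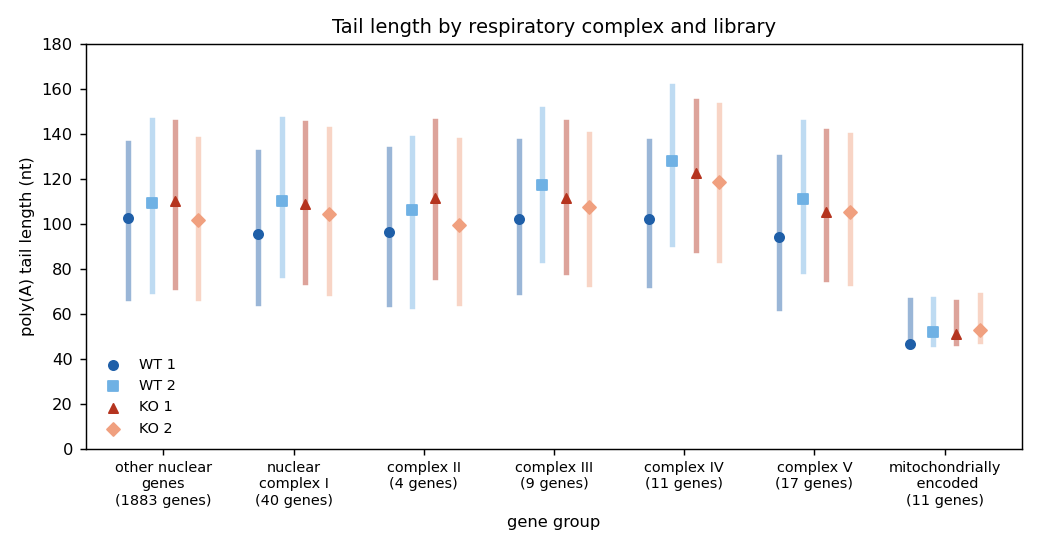
Poly(A) tail length in nt (vertical axis) of each gene group (horizontal axis) in the 4 libraries: points are the median over genes of the gene medians, and bars span the middle 50% of single reads. Complex IV lies above complex V in every library (by 7.82 nt in WT 1 and 17.1 nt in WT 2), and the mitochondrially encoded genes lie lowest, at 46.7 to 52.8 nt.

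Among the complexes, complex IV had the longest tails, but in WT 1 it did not stand above complex III. The 11 complex IV members had medians of 102.1, 127.9, 122.7 and 118.4 nt. The 17 complex V members had 94.3, 110.8, 105.4 and 105.1 nt, the 9 of complex III had 102.2, 117.1, 111.5 and 107.6 nt, and the 4 of complex II had 96.4, 106.1, 111.4 and 99.6 nt. Complex IV exceeded complex V by 7.82, 17.1, 17.2 and 13.3 nt, a mean of 13.9 nt ± 4.41 (SD over 4 libraries), and by 15.9 nt ± 2.21 without WT 1. It lay 0.07 nt below complex III in WT 1 and exceeded it by 10.8, 11.1 and 10.8 nt in the other libraries. Per library, between 10 and 11 of the 11 complex IV members lay above the complex V median. Members are not replicates, so the order of the complexes is a description over 4 libraries and carries no test.

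Complex IV also lay above complex V in single reads. Tails of 150 nt or more made up 18.1, 32.6, 28.4 and 26.7% of complex IV reads, against 15.5, 22.2, 20.01 and 19.4% of complex V reads. In WT 1 the 95% Wilson intervals were 17.1 to 19.2% for complex IV and 14.5 to 16.5% for complex V. They did not overlap, but they cover counting error of pooled reads only, not the spread between genes or libraries. Very short tails under 30 nt were rare in both: between 0.678 and 1.76% of complex IV reads and between 0.978 and 2.62% of complex V reads. Oligo(dT) beads may not retain such tails, so these shares describe the enriched RNA only.

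**Figure D2:**
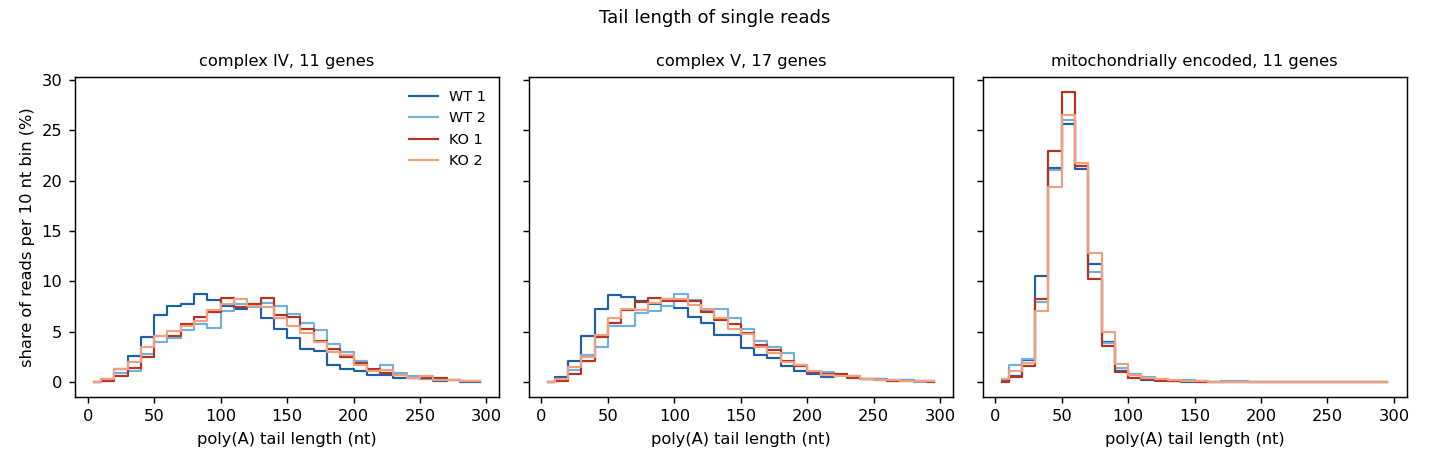
Share of reads in percent per 10 nt bin (vertical axis) against poly(A) tail length in nt (horizontal axis, shown up to 300 nt) for single reads of complex IV, complex V and the mitochondrially encoded genes, with 1 line per library. The WT 1 lines of the nuclear complexes are shifted to shorter tails, and the mitochondrially encoded reads form a narrow peak in all 4 libraries.

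In complex II, Sdha and Sdhb carry the catalytic flavin and the iron-sulfur clusters, and Sdhc and Sdhd anchor them in the membrane. Sdhc (ENSMUSG00000058076.12) had the longest mean level of the complex, with medians of 107.0, 104.8, 114.2 and 113.0 nt. Sdhb (ENSMUSG00000009863.14), the member of this complex with most reads, had the shortest mean level, with 93.4, 86.9, 105.7 and 89.9 nt, although Sdha was lower in WT 1. Sdha (ENSMUSG00000021577.14) had 92.6, 107.4, 108.5 and 103.7 nt, and Sdhd (ENSMUSG00000000171.5) had 99.4, 109.6, 116.4 and 95.6 nt. Sdhc was thus above both catalytic subunits in 3 libraries and below Sdha in WT 2, and Sdhd lay above it in WT 2 and KO 1. KO 1 gave the highest value for all 4 genes, and only for Sdhc did the KO libraries lie above both WT libraries.

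These genes have few reads, between 37 and 180 per library, and the exact 95% intervals of the medians are correspondingly wide, such as 83.1 to 138.3 nt for Sdhd in WT 2. For none of them did the tail length differ between genotypes in limma's test (log2 differences of 0.02 to 0.11, adjusted p = 0.9998 for each).

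In complex III, the genes for the electron-carrying subunits and the core proteins had shorter tails, as medians by role, than those for the small accessory subunits. Cyc1 (ENSMUSG00000022551.8), cytochrome c1, had the shortest mean level of all 41 members, with 84.0, 92.5, 92.1 and 79.1 nt (mean 86.9 nt ± 6.52, SD over 4 libraries). It was the lowest member in both KO libraries, but Atp5o was lowest in WT 1 and Sdhb in WT 2. Uqcrfs1, the Rieske iron-sulfur protein, had 103.8, 95.1, 105.7 and 117.7 nt, the last being the highest of the complex in KO 2. The core proteins Uqcrc1 and Uqcrc2 had medians of 85.6 and 89.2 nt in WT 1 and between 95.02 and 108.6 nt in the other libraries.

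The 5 small subunits Uqcrb, Uqcrq, Uqcrh, Uqcr10 and Uqcr11 had role medians of 103.0, 123.6, 113.8 and 107.8 nt. They exceeded the core proteins by 15.6, 16.97, 13.3 and 6.49 nt and the electron carriers by 9.12, 29.8, 14.9 and 9.40 nt, positive in 4 of 4 libraries in each case. The electron carriers are Cyc1 and Uqcrfs1 only, and Uqcrfs1 by itself lay above the small subunits' median in WT 1 and KO 2. Uqcr11 (ENSMUSG00000020163.12) was the longest of the complex by mean level, with 102.2, 124.8, 116.5 and 115.2 nt. Uqcrq (ENSMUSG00000044894.14), which had most reads of the complex, had 102.1, 117.1, 111.9 and 110.5 nt. WT 2 exceeded WT 1 for each of these 5 genes, from 13.3 nt (Uqcrh) to 22.6 nt (Uqcr11).

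In complex IV, Cox8a (ENSMUSG00000035885.5), a small membrane subunit, had the longest tails of all members. Its medians were 120.0, 142.3, 131.4 and 127.4 nt (mean 130.3 nt ± 9.34, SD over 4 libraries), with an exact 95% interval of 112.0 to 124.5 nt in WT 1. It ranked first in 3 libraries and second to Cox6c in KO 2. Cox6c had 102.8, 137.6, 128.2 and 132.7 nt, a gap of 34.8 nt between the WT libraries. Cox4i1 (ENSMUSG00000031818.12), the regulatory subunit that binds ATP and the complex IV member with most reads, had 96.8, 125.5, 122.8 and 118.4 nt.

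By mean level, the ubiquitous forms of paired isoforms all lay in the upper part of the order, although Cox4i1 ranked 26 of 41 in WT 1. Cox6b1 had 111.4, 135.8, 126.8 and 124.6 nt, Cox6a1 had 102.9, 134.0, 125.0 and 124.7 nt, and Cox7a2 had 100.9, 129.7, 122.7 and 120.2 nt. For each of these 3 genes WT 1 was the lowest library and WT 2 the highest. Cox7a2l (ENSMUSG00000024248.14), which is related to Cox7a2 and helps join complexes III and IV into supercomplexes, differed from them. It had 102.1, 105.8, 103.4 and 107.8 nt, the shortest mean level in complex IV (104.8 nt ± 2.50, SD over 4 libraries) and the smallest spread of any member. Cox7a2 exceeded it in the 3 libraries other than WT 1, and lay below it in WT 1.

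In complex V, the order of the roles by position of the subunit differed between libraries. Atp5l (ENSMUSG00000038717.8), subunit g in the membrane part, had the longest mean level, with 104.0, 132.5, 120.4 and 120.5 nt, but Atp5mpl lay above it in WT 1 and KO 1 and Atp5g2 in WT 1. Atp5k (ENSMUSG00000050856.16), subunit e beside it in the membrane, had the shortest mean level, with 82.2, 101.7, 92.3 and 94.1 nt, but Atp5o lay below it in both WT libraries. Atp5b (ENSMUSG00000025393.12), the catalytic beta subunit and the member with most reads of all 47, had 90.3, 103.0, 105.4 and 104.4 nt. Small membrane subunits had a role median of 94.3, 117.4, 109.1 and 106.0 nt, and the F1 head (Atp5a1 and Atp5b) 91.8, 106.7, 106.8 and 105.2 nt. The c-ring had 98.5, 114.0, 106.5 and 106.3 nt. The central stalk had 98.1, 106.7, 102.0 and 105.8 nt, and the peripheral stalk 92.8, 110.1, 100.7 and 100.6 nt.

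Atp5g1, Atp5g2 and Atp5g3 encode the same mature c subunit of the proton-carrying ring behind different import sequences. Their tails nevertheless kept 1 order at the top: Atp5g2 was longest in every library, with 104.2, 119.3, 118.2 and 114.5 nt. Atp5g3 had 98.5, 110.8, 106.5 and 106.3 nt, and Atp5g1 had 91.3, 114.0, 101.0 and 102.1 nt. Atp5g3 exceeded Atp5g1 in 3 libraries and lay below it in WT 2. Within libraries, Atp5g2 exceeded Atp5g3 by 8.54 nt ± 2.48 and Atp5g1 by 11.95 nt ± 4.94 (mean and SD of the differences over 4 libraries). Atp5g3 exceeded Atp5g1 by 3.42 nt ± 4.56, less than its spread.

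**Figure D3:**
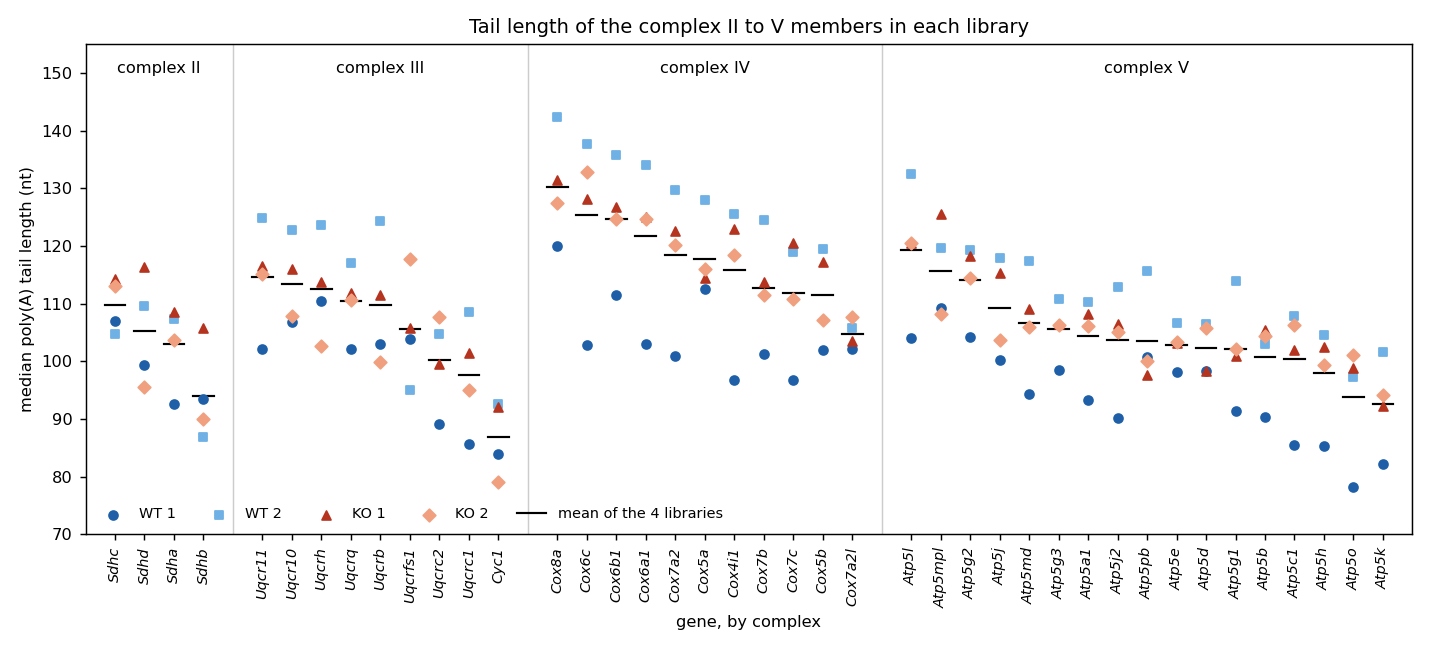
Median poly(A) tail length in nt (vertical axis, starting at 70 nt) of the 41 tested members, ordered within each complex by the mean of the 4 libraries (black line), with 1 symbol per library. WT 1 is the lowest library for all 11 complex IV members, and the members run from Cox8a at a mean of 130.3 nt to Cyc1 at 86.9 nt.

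Over all 41 members the order was shared between libraries, with Spearman's rho between 0.652 and 0.821 for the 6 pairs of libraries; this is across genes within libraries, and the points share libraries and depth. The widest gaps between neighbours in the order did not exceed their spread within libraries: Cox8a exceeded the next member, Cox6c, by 4.94 nt ± 9.26, and Atp5k exceeded Cyc1 by 5.63 nt ± 7.83 (SD of the differences over 4 libraries). All other gaps were smaller. Of the members, 9 had more than 1 transcript with at least 20 reads in every library. In none of them did the transcript with the longest mean tail exceed that with the shortest in all 4 libraries. Cox4i1 transcripts, for example, differed by −2.16, 15.3, 0.41 and 22.9 nt. Atp5a1 had 4 such transcripts, and 1 between these extremes, at a mean of 107.3 nt, exceeded the shortest, at 100.6 nt, in every library. Its medians were 97.96, 111.1, 114.9 and 105.1 nt, against 86.8, 108.5, 108.5 and 98.5 nt.

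Classes of Mov10 targets in the authors' deposited table were compared among the members. In it 3 members are Mov10 targets with m6A (Atp5g3, Atp5j2 and Cox7a2l), 14 are targets without m6A, 15 are non-targets and 15 have no class. The tested targets without m6A (14 genes) had medians of 100.7, 118.6, 114.0 and 109.5 nt and the tested non-targets (12 genes) had 98.8, 111.8, 108.6 and 104.6 nt. Targets without m6A were longer than non-targets in each library, and the ranges of these classes overlapped in each. The tested members with no class (12 genes) had 101.4, 118.4, 111.8 and 106.6 nt, also above the non-targets in each library. They lay above the targets without m6A in WT 1 and below them in the other libraries. The 3 targets with m6A had 98.5, 110.8, 106.5 and 106.3 nt, below the non-targets in 3 libraries and above them in KO 2.

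The comparison of genotypes asked whether tails of these genes differed in the Mov10 knockout. None of the 41 members did so in limma's test (adjusted p = 0.9998 for each; 0.0% of the 1935 genes tested were called), and none had an unadjusted p under 0.05, against 44 of all genes (2.27%). The members' log2 differences, KO minus WT, ran from −0.13 (Atp5pb) to 0.20 (Atp5o), with a median standard error of 0.13. Their median was 0.03 with a replicate SD of 0.13, beside 0.01 over all genes tested. By complex it was 0.10 for II, 0.02 for III, 0.03 for IV and 0.03 for V.

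The 3 members with the smallest p were Atp5o, Cox4i1 and Atp5b. Atp5o (ENSMUSG00000022956.11), a subunit of the peripheral stalk, had 78.2, 97.4, 98.9 and 101.1 nt. The means were 87.8 nt ± 13.6 in WT and 99.99 nt ± 1.54 in KO (SD, n = 2). Both KO libraries lay above both WT libraries, yet WT 2 was close to KO 1, and WT 1 alone lay far lower. The log2 difference was 0.20 with a standard error of 0.12 (limma, unadjusted p = 0.107), 0.04 without WT 1 and 0.36 without WT 2 (limma, adjusted p = 0.0995). Cox4i1, at 0.13 with a standard error of 0.11, turned to −0.06 without WT 1. Atp5b, at 0.12 with a standard error of 0.11, fell to 0.03 without WT 1.

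WT 1 set the direction for the members as a whole. The difference was above 0 for 32 of the 41 members, beside 51.8% of all genes, but for 5 of 41 without WT 1 (39.3% of all genes) and for 39 of 41 without WT 2 (60.7%). The members' median moved from 0.03 to −0.08 without WT 1 and to 0.15 without WT 2, where all genes moved to −0.05 and 0.04. WT 1 was the lowest library for 32 of 41 members, beside 38.1% of all genes, including all 11 of complex IV and 15 of 17 of complex V, and for 27 of the 40 nuclear complex I genes. WT 2 exceeded WT 1 by a median of 17.5 nt over the members and of 7.01 nt over all genes, whereas KO 1 exceeded KO 2 by 2.10 nt over the members and by 7.48 nt over all genes. The replicate gap within WT was thus wider for the members than the median over all genes, as it was between the complex I medians of 95.6 and 110.3 nt, and the members' genotype difference lay inside it.

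Few members had libraries that did not overlap between genotypes. Both KO libraries lay above both WT libraries for 4 of 41 (Atp5b, Atp5o, Sdhc and Uqcrfs1), beside 14.7% of all genes, and below them for 1 of 41 (Atp5pb), beside 11.8%. Uqcrfs1 and Atp5pb are named here after their values were seen. Atp5pb, a peripheral stalk subunit, had 100.7, 115.7, 97.7 and 100.1 nt, so KO 2 lay just under WT 1.

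Read number, the number of molecules of a gene that were sequenced, was compared next for the 43 members with a mean of at least 10 reads. Values are reads per 1000000 reads (RPM) after median-of-ratios scaling, not divided by transcript length. No member passed the threshold in limma's voom test (lowest adjusted p = 0.406; 0.0208% of the 4815 genes tested were called), and 1 had an unadjusted p under 0.05, beside 10.4% of all genes. In these bulk libraries, fewer cells of a type and less RNA per cell cannot be told apart.

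Atp5h (ENSMUSG00000034566.10), subunit d of the peripheral stalk, was that member. It had 865.6, 742.1, 1327 and 1050 RPM, with both KO libraries above both WT libraries. The means were 803.9 ± 87.3 in WT and 1189 ± 196 in KO (SD, n = 2). The log2 difference was 0.56 with a standard error of 0.23 (voom, adjusted p = 0.406), and 0.40 to 0.75 with 1 library left out. It was 1.28 when transcripts carrying more than 1 symbol were left out. By RefSeq gene order, 19 of the 20 nearest tested genes on chromosome 11 also had more reads in KO than in WT, with a median log2 difference of 0.77. Atp5b on chromosome 10, at 0.24 with a standard error of 0.21, likewise had 17 of 20 neighbours above 0, with a median of 0.51. Of all genes tested, 50.0% were above 0. These were the highest neighbour counts among the 43 tested members, and the others had from 4 to 14 neighbours above 0. Members did not always share the direction of their neighbours. Atp5a1, at −0.15, had a neighbour median of −0.42, whereas Uqcr10, at −0.28, had a neighbour median of 0.26. Whether the neighbourhood has a part in the values of Atp5h and Atp5b was not tested.

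The other members with the smallest p lay lower in KO. Cox6b2 (ENSMUSG00000051811.14), the testis form of a complex IV subunit, had 42.9, 24.8, 17.05 and 11.1 RPM, from 5 to 17 reads, and its libraries did not overlap (log2 difference −1.14, standard error 0.56; voom, adjusted p = 0.492). Cox7a2l had 471.9, 303.5, 308.3 and 218.5 RPM, and KO 1 lay above WT 2 (log2 difference −0.54, standard error 0.28; voom, adjusted p = 0.534). Without WT 2 its difference was −0.84 and passed (voom, adjusted p = 0.0187), and without WT 1 it was −0.18. Cox4i1, with the most reads in complex IV, had 1792, 1321, 1458 and 1266 RPM, KO 1 again lying between the WT libraries.

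**Figure D4:**
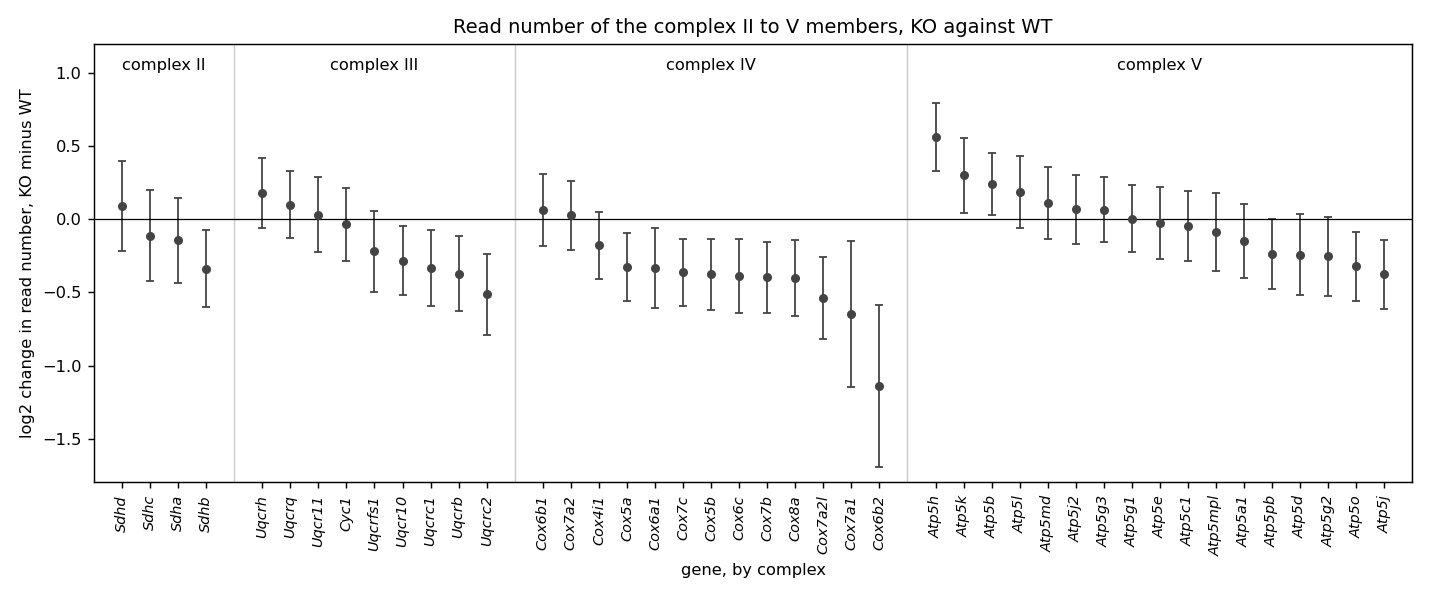
Log2 difference in read number, KO minus WT (vertical axis), of the 43 tested members by complex (horizontal axis); points are voom estimates and bars are 1 standard error. Estimates run from −1.14 (Cox6b2) to 0.56 (Atp5h), and 11 of the 13 complex IV members lie below 0.

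The log2 difference in read number, KO minus WT, was below 0 for 29 of 43 members, beside 50.0% of all genes, with a median log2 difference of −0.18 (replicate SD 0.15), beside 0.00 over all genes. In complex IV, 11 of 13 members were below 0 with a median of −0.38, and the replicate SD of that median was 0.31. Complex III had 6 of 9 below 0 and a median of −0.22, complex II 3 of 4 and −0.13, and complex V 9 of 17 and −0.03. Nuclear complex I genes gave similar values, with 36 of 47 below 0 and a median of −0.22. Without WT 1 the members' median was −0.0006, 21 of 42 were below 0, beside 49.0% of all genes, and no member was called (voom), beside 1.81% of all genes. Without WT 2 the median was −0.35 and 31 of 43 were below 0, beside 51.9% of all genes. In that fit 6 complex IV members passed the threshold (Cox5b, Cox6a1, Cox6c, Cox7a2l, Cox7b and Cox8a), beside 456 of all 5086 genes (8.97%).

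WT 1 was the highest library in read number for 26 of 43 members, beside 32.9% of all genes, and for 11 of 13 in complex IV. Nuclear complex I was similar to the members, with 26 of 47 genes. Cox6a1 had 1186 RPM in WT 1 and 642.8, 754.4 and 635.4 in the others, and Cox8a had 1055 against 637.3, 593.9 and 653.3. The library with the shortest tails for most of these genes was thus also the highest in scaled read number for most of them. Both KO libraries lay below both WT libraries for 12 members, beside 20% of all genes, and above them for 6 (Atp5b, Atp5h, Atp5k, Atp5md, Cox7a2 and Uqcrh), beside 20.5%. Of the 47 nuclear complex I genes, 14 lay below in this way and 3 above. The 10 stem cell markers also had lower values in KO. Their summed level was 10610 and 9388 RPM in WT and 8064 and 6947 RPM in KO. All 10 had log2 differences below 0 (median −0.41), beside 50.0% of all genes. In voom none had an adjusted p under 0.05, and 3 had an unadjusted p under 0.05, beside 10.4% of all genes. The marker sum was lower in both KO libraries than in either WT library. In complex IV, both KO libraries lay below both WT libraries for 4 of 13 members, and WT 1 was mostly the highest library. Whether the values of the markers and of the members are related was not tested.

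Other genes of the pathway were taken from lists of cytochrome c with the assembly factors of these complexes, and of transcription regulators of respiratory genes. Of 38 assembly genes, 37 had reads, 10 were tested for tail length and 29 for read number. None passed either test: their median log2 differences were −0.02 for tail length and −0.12 for read number, with 14 above 0 and 15 below in read number (limma and voom, lowest adjusted p = 0.566 for read number). Cycs, cytochrome c itself, had tails of 89.4, 104.5, 101.5 and 101.1 nt, and Atpif1, the inhibitor of ATP synthase, had 106.5, 127.0, 121.1 and 113.3 nt. Both had their lowest value in WT 1 and their highest in WT 2, as most members did. Of 12 regulators, 11 had reads and 6 were tested for read number, with a median of 0.24 and none called (voom, lowest adjusted p = 0.667). Ppargc1a, a coactivator of respiratory genes, had no read in any library.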

How the data were processed

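Direct RNA nanopore reads of 2 WT and 2 KO libraries were used. Per the labels' protocols, poly(A) RNA was enriched on oligo(dT) beads, which very short tails may not pass, and libraries were multiplexed with barcode adapters; which libraries shared a flow cell is not given in the sources used here. Alignment used minimap2 2.20, per the submitters' processing notes; the tail estimator, genome build and annotation are not given in the sources used here. The authors' deposited table lists 1903922 reads, each with a transcript, a symbol, a library and a tail length in nt (an estimate per read); 3 reads with length 0 were left out. Libraries held 439535, 351133, 683239 and 430012 reads (WT 1, WT 2, KO 1, KO 2). Reads were grouped by deposited symbol; 40.0% of the members' reads lie on transcripts that carry more than 1 symbol.

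For tail length, limma 3.58.1 in R 4.3.3 was fitted to the log2 gene medians of the libraries (trend on read number, at least 20 reads in every library). Reads per gene were counted here and tested with limma's voom (median-of-ratios scaling, mean of at least 10 reads, 0.5 reads added). Benjamini-Hochberg adjustment ran over all genes, with a threshold of 0.05. Both fits were also run on simulated data with independent noise for each gene. That simulation held no shift shared by the genes of a library, so it does not cover a deviation like that of WT 1. The members, the lists and the tests were chosen with earlier results of these data known. Named genes were all Sdh genes, the members with the longest and shortest tails and the most reads in each complex, the 3 with the smallest p in each test, the isoform sets and Mov10. Intervals are exact order-statistic (medians) or Wilson (shares) at 95% and cover counting error only. Alternatives changed the summary, the minimum reads, centring, scaling, model and shared transcripts, or left out a library; the alternatives for the difference between complexes IV and V and for single gene levels were added after seeing the data. Member symbols matched the gene name table for 45 of 47.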

Additional observations from a re-analysis of the deposited data

How the results depend on the processing

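With 2 libraries per genotype, single libraries limit every comparison between genotypes. In tail length no complex II to V member passed under any setting; genes called over the whole table numbered 0, 1 with a minimum of 10 reads, and 0 to 2 with a library left out (2 without WT 2). The log2 tail difference of Cox4i1 ran from −0.058 (without WT 1) to 0.32 (without WT 2). In read number 1 gene was called, and 7 when scaled to total reads (median of all genes then 0.11), 96 with no filter, 0 with a mean of at least 50 reads, 0 with limma's trend model, and 0 to 456 with a library left out: 456 without WT 2, 90 without WT 1 and 0 without KO 1 or KO 2 (166 and 149 genes with an unadjusted p under 0.05). Mov10 lost its call under limma's trend model and without either KO library (adjusted p = 0.174, 0.977 and 0.993). The members' median read number difference ran from −0.35 to −0.000614 with a library left out. Replicate numbers did not pair the libraries (correlation of same-numbered deviations 0.0135 for tail length and 0.0155 for read number); with the replicate block 0 genes were called in tail length and 65 in read number, none of them members. The members' level with means of log2 lengths was 105.4 nt in KO 1 and 100.9 nt in KO 2, and 107.3 nt in KO 1 with only transcripts of 1 symbol. Their difference from other nuclear genes was 6.19 nt in KO 1 and 9.73 nt in KO 2 over pooled reads, −0.70 nt in KO 1 with a minimum of 10 reads, and −3.77 nt in KO 1 with only transcripts of 1 symbol. Complex IV minus complex V stayed above 0 in all 24 values over settings and libraries (7.82 to 21.6 nt); with means of log2 lengths it was 13.3 nt in KO 1 and 8.17 nt in KO 2, and with only transcripts of 1 symbol 17.1 nt in KO 2. The cause of these shifts was not tested.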
